A study of Mus musculus with 9 samples.

Results

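The insulin-like growth factor (IGF) system was examined in differentiated MC3T3-E1 cells as a set of 9 genes chosen by name: the ligands *Igf1* and *Igf2*, the receptors *Igf1r* and *Igf2r*, and the binding proteins *Igfbp2*, *Igfbp3*, *Igfbp4*, *Igfbp5* and *Igfbp6*. All 9 were found among the 55416 genes of the count table, and 8 of them had enough reads to be tested. The 9 RNA sequencing libraries were made from MC3T3-E1 cells, an established pre-osteoblast line from mouse calvarial bone (genotype WT). The comparisons ask how cells that make FGF23 respond to an organic and an inorganic phosphate source.

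All cells, Control included, were differentiated in osteogenic αMEM with serum, ascorbic acid, 10 mM β-glycerophosphate (BGP) and 0.1 µM dexamethasone. The labels give this medium for 27 days, while the methods describe a last week without BGP. At day 27 the cells then received 4 mM BGP, 4 mM of a Na2HPO4/NaH2PO4 mixture (NaHPO4) or no added phosphate (Control) for 16 h, and RNA was taken at day 28. The αMEM itself contained sodium phosphate in all conditions, Control included. BGP carries its phosphate as an ester of glycerol, and NaHPO4 supplies free phosphate ions. The study states that alkaline phosphatase rapidly degrades BGP in medium to inorganic phosphate. Each condition had 3 libraries, numbered as replicates, and no source says that they came from separate cultures, so p-values measure the spread between these libraries only.

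IGF1 and IGF2 are small proteins related to insulin that act on growth, survival and differentiation, and osteoblasts secrete both into bone matrix. They signal through IGF1R, a receptor tyrosine kinase. IGF2R, also known as the mannose 6-phosphate receptor, has no kinase and carries IGF2 to lysosomes, where it is degraded. The binding proteins hold the ligands outside the cell, where proteases release them again.

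Total counts lay between 21390839 and 28234404 per library. The known phosphate response genes were checked first. *Dmp1*, which encodes a mineral-binding matrix protein, had a log2 fold change (log2FC) of 2.86 in BGP versus Control and 2.19 in NaHPO4 versus Control. *Spp1*, which encodes osteopontin, had 1.48 and 1.97. *Fgf23*, the phosphate-regulating hormone, had 2.78 (adjusted p = 1.07e-12, edgeR quasi-likelihood test) with BGP and 0.35 (adjusted p = 0.496) with NaHPO4. All 14 osteoblast and osteocyte markers reached 10 counts in at least 1 library. All 4 endothelial markers and 6 of 7 adipocyte markers did not, with *Fabp4* as the exception. Of 6 macrophage and osteoclast markers, *Ptprc*, *Adgre1* and *Acp5* did not, while *Csf1r*, *Cd68* and *Ctsk* did. Among 7 muscle markers, *Acta2*, *Tagln* and *Myh3* did and *Myh11* and *Cnn1* did not. The muscle regulators *Myod1* and *Myog* had 0 counts in every library. All 6 chondrocyte markers except *Acan* reached 10 counts in at least 1 library.

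Among the members, 3 passed the test in some comparison, where passing means a false discovery rate (FDR) below 0.05 over 13679 tested genes and a differentially expressed gene (DEG) also has an absolute log2FC above 0.5. These were *Igf2*, *Igfbp5* and *Igfbp6*. The sequence before a start site of each is shown to give a view of the region where their transcription begins. Each run is the 250 bases before a RefSeq start, 5′ to 3′ on the gene's strand, with CG dinucleotides in capitals, the sites at which vertebrate DNA is methylated. The sequences come from RefSeq on GRCm38.p6, and their GRCm39 positions were found by exact match. *Igf2* has 4 such start sites in RefSeq, and the fourth is shown (chr7:142211234-142211483, minus strand). The *Igfbp5* window is chr1:72914025-72914274 on the minus strand, and the *Igfbp6* window is chr15:102052371-102052620 on the plus strand.
Igf2: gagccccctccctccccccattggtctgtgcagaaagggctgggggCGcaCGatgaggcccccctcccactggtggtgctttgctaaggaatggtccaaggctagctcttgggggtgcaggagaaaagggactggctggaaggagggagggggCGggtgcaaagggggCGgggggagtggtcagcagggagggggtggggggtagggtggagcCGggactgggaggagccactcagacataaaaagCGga
Igfbp5: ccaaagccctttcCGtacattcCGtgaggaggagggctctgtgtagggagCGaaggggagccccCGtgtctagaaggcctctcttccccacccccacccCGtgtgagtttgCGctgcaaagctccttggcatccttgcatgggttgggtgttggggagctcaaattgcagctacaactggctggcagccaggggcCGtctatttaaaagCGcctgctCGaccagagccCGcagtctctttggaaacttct
Igfbp6: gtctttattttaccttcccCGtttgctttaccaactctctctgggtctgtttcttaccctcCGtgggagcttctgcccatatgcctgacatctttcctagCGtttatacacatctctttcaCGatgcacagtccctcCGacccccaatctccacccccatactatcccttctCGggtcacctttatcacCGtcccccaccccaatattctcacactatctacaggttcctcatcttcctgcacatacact

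These windows held 6 CG in *Igf2*, 10 in *Igfbp5* and 7 in *Igfbp6*. The median over 32851 RefSeq promoter windows of the same length was 6, and 92.1% of them held at least 1. A GC box (GGGCGG, or CCGCCC on the other strand) occurred in the *Igf2* window shown, 2 times, and in neither of the other windows, against 32.7% of all windows. The members had 13 windows in all, and 5 of these held a GC box. CG was densest before *Igf1r*, with 42, and before *Igfbp3*, with 32. The 4 *Igf2* windows held 1, 10, 22 and 6 CG from the first to the fourth, and 0, 0, 1 and 2 GC boxes. The window shown was thus the *Igf2* window with the most GC boxes. Reads were counted per gene, so the libraries do not tell which *Igf2* start was used.

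The positions below are those of GENCODE on GRCm39, the build to which the reads were mapped. *Igf2* (ENSMUSG00000048583) spans chr7:142204503-142220694 on the minus strand, 70545 bases from *H19*, the noncoding RNA of the same imprinted domain. *Igf2* is transcribed from the paternal copy and *H19* from the maternal one. Of the exon bases of *Igf2*, 58.4% (3599 bases) are shared on the same strand with the gene model *Gm49394*, which had 0 to 6 counts per library, and how shared reads were assigned was not given in the sources used here. *Igf2r* (chr17:12901293-12988614, minus strand) shares 28417 bases with *Airn* on the opposite strand, the noncoding RNA that silences the paternal *Igf2r* copy in mouse, though no exon bases. *Igfbp2* and *Igfbp5* lie 5456 bases apart on chromosome 1 and face each other, at chr1:72863606-72891634 and chr1:72897091-72914043. *Igfbp3* (chr11:7156086-7164179, minus strand) lies 3539 bases from *Igfbp1* in the same arrangement. *Igf1* spans chr10:87693642-87772904, *Igf1r* chr7:67601518-67883416, *Igfbp4* chr11:98932064-98945218 and *Igfbp6* chr15:102052697-102057953, all on the plus strand.

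The levels in Control were compared between genes as CPM per kb of exon, where CPM is the count divided by the library size after TMM normalization. The binding protein *Igfbp4*, a secreted inhibitor of IGF action, had the highest level at 108 ± 4.65 CPM per kb (SD, n = 3), above 98.6% of the 13631 tested genes with an annotated length. *Igf2r* followed at 31.7 ± 1.13 and *Igfbp5*, a binding protein that is stored in bone matrix, at 15.5 ± 0.336 CPM per kb. *Igfbp2*, *Igf1r* and *Igfbp6* had 5.64, 5.54 and 5.43 CPM per kb, and the libraries of neighbours in this order overlapped. The ligands were lowest, with 1.74 ± 0.0472 CPM per kb for *Igf2* and 1.53 ± 0.467 for *Igf1*, above 31.5% and 29.2% of tested genes, and these also overlapped. The *Igf2* level per kb is too low if reads in the 3599 exon bases shared with *Gm49394* were not counted. How these reads were assigned was not given, and the shares and ratios below carry the same limit. *Igfbp3*, the main carrier of IGFs in serum, had 0 counts in all 9 libraries, and the 3 counts that a count of 0 allows would be 0.106 to 0.14 CPM.

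**Figure D1:**
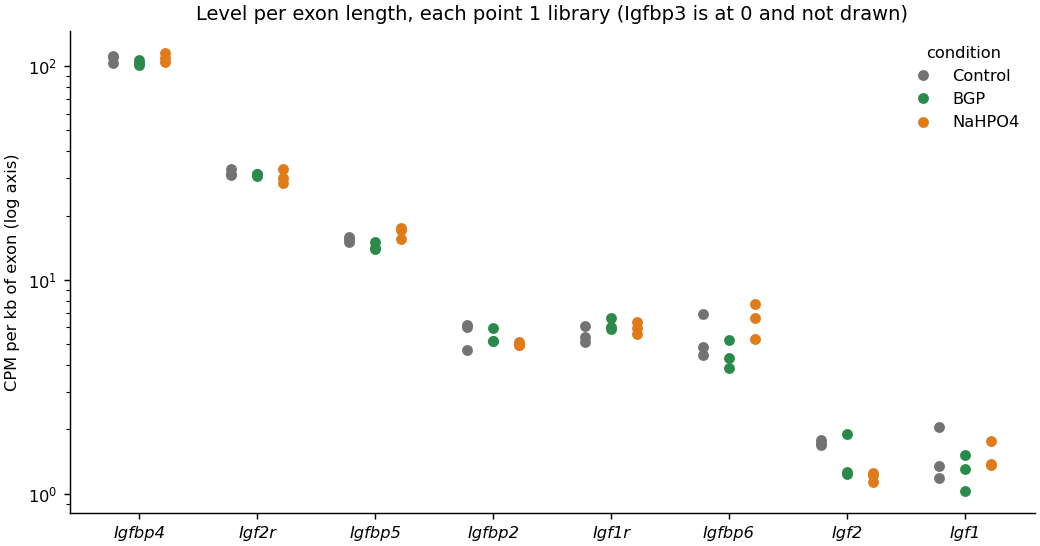
Level of the 8 detected IGF genes in CPM per kb of exon on a log axis, with each point 1 library, in grey for Control, green for BGP and orange for NaHPO4. *Igfbp4* lies near 108 CPM per kb in every condition, and *Igf2* and *Igf1* lie lowest, with *Igf2* at 1.74 in Control and 1.2 in NaHPO4 on average.

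The order of the first 3 genes was the same in BGP and in NaHPO4. In NaHPO4, *Igf1* (1.51 CPM per kb) stood above *Igf2* (1.2), and their libraries did not overlap. This order of the ligands also depends on how the reads in exon bases shared with *Gm49394* were assigned. *Igfbp4* made up 80.3% ± 0.896 of the summed binding protein level in Control, 81.0% ± 0.706 in BGP and 79.4% ± 0.489 in NaHPO4. *Igfbp5* made up 11.5%, 11.2% and 12.2% of it. The share of *Igf2* in the summed level of both ligands was 53.8% ± 7.75 in Control, 53.0% ± 10.6 in BGP and 44.6% ± 4.72 in NaHPO4, and the libraries of the 3 conditions overlapped.

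The summed transcript level of the binding proteins was 41.9 ± 7.0 times that of the ligands in Control, 46.6 ± 3.99 in BGP and 51.0 ± 4.45 in NaHPO4. The Control libraries lay between 33.9 and 46.7 and the NaHPO4 libraries between 46.9 and 55.7, without overlap but with a narrow gap. *Igf2r* was 5.74 ± 0.321 times the level of *Igf1r* in Control, 5.02 ± 0.297 in BGP and 5.12 ± 0.352 in NaHPO4. The Control libraries (5.45 to 6.09) lay above the BGP libraries (4.7 to 5.28) and, by a narrow gap, above the NaHPO4 libraries (4.73 to 5.4). The values are ratios of RNA levels, were not tested, and depend on which exons are counted as length. With the longest transcript, *Igf2r* over *Igf1r* was 3.82 in Control, 3.34 in BGP and 3.41 in NaHPO4. The ratio of binding proteins to ligands also depends on how reads in the exon bases that *Igf2* shares with *Gm49394* were assigned.

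*Igf2* was the ligand that fell. Its level in Control was 11.0, 10.5 and 10.6 CPM in replicates 1, 2 and 3. In NaHPO4 it was 7.68, 7.02 and 7.54 CPM, so every NaHPO4 library lay below every Control library. In BGP it was 11.8, 7.64 and 7.74 CPM, and replicate 1 alone lay above all Control libraries while the others lay near NaHPO4.

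In NaHPO4 versus Control, *Igf2* had a log2FC of -0.53 (SE 0.123, 95% interval -0.78 to -0.28, adjusted p = 0.00407, edgeR quasi-likelihood test), a change of -30.7%. It was a DEG. Without NaHPO4 replicate 2 it still passed but, at a log2FC of -0.49, was no longer a DEG. In BGP versus Control its log2FC was -0.24 (SE 0.123, adjusted p = 0.392), which did not pass. Without BGP replicate 1 this log2FC was -0.48 and passed (adjusted p = 0.0282, edgeR). The direct comparison of BGP with NaHPO4 gave 0.29 (95% interval 0.03 to 0.54, adjusted p = 0.228), so a difference between the phosphate sources was not shown for *Igf2*. Without BGP replicate 1 this value was 0.05 (adjusted p = 0.910, edgeR).

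*Igf1*, the other ligand, varied more between libraries than between conditions. It had 12.1, 21.1 and 13.8 CPM in Control, 10.6, 15.5 and 13.4 in BGP, and 14.0, 18.1 and 14.2 in NaHPO4. Replicate 2 was the highest library in every condition. The log2FC was -0.25 (95% interval -0.53 to 0.03) with BGP and -0.02 (-0.29 to 0.25) with NaHPO4, neither of which passed. Without Control replicate 2 these became 0.02 and 0.25, of the opposite sign, and still did not pass.

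**Figure D2:**
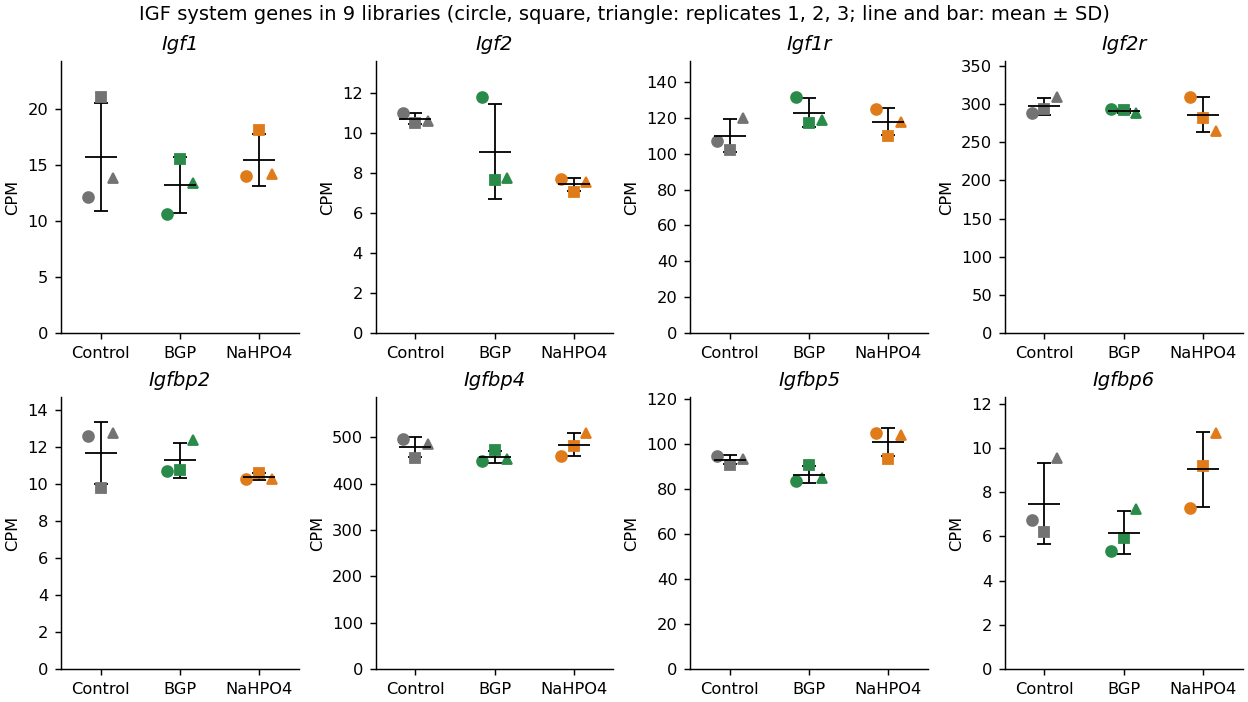
CPM of the 8 detected members in each library, by condition, on axes that start at 0. Circles, squares and triangles are replicates 1, 2 and 3, and lines with bars are the mean ± SD. *Igf2* lies between 7.02 and 7.68 CPM in NaHPO4, below all 3 Control libraries, and *Igf1* is highest in replicate 2 of each condition.

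Neither receptor passed in any comparison. *Igf1r* had 107, 102 and 120 CPM in Control, 132, 117 and 119 in BGP, and 125, 110 and 118 in NaHPO4. The conditions overlapped, with Control replicate 3 inside the range of the treated libraries. Its log2FC in BGP versus Control was 0.16 (SE 0.0502, adjusted p = 0.0873, edgeR), and in NaHPO4 versus Control 0.10 (adjusted p = 0.240). Without Control replicate 3 both passed, at 0.23 (adjusted p = 0.00675) and 0.17 (adjusted p = 0.0321, edgeR). Without Control replicate 2 they were smaller, at 0.11 (adjusted p = 0.379) and 0.05 (adjusted p = 0.669, edgeR), and without BGP replicate 1 the BGP value was also 0.11 (adjusted p = 0.481). The BGP value also passed without the filter on low counts (adjusted p = 0.0102, edgeR).

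*Igf2r* had 289, 293 and 309 CPM in Control, 293, 292 and 288 in BGP, and 310, 282 and 265 in NaHPO4. The NaHPO4 libraries spread on both sides of the others. The difference from Control was between -7.53% and 3.56% for BGP and between -9.14% and 1.70% for NaHPO4 (95% intervals). Without NaHPO4 replicate 1, the log2FC in NaHPO4 versus Control was -0.12 and passed (adjusted p = 0.0457, edgeR), and without NaHPO4 replicate 3 it was -0.0055 (adjusted p = 0.964).

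Among the binding proteins, *Igfbp5* and *Igfbp6* differed between the phosphate sources. *Igfbp5* had 94.8, 90.8 and 93.2 CPM in Control, 83.4, 90.6 and 84.7 in BGP, and 105, 93.4 and 104 in NaHPO4. All BGP libraries lay below all Control libraries and below all NaHPO4 libraries, and NaHPO4 overlapped Control through replicate 2. The gap between BGP and Control was narrow, 90.6 against 90.8 CPM at the nearest. In BGP versus NaHPO4 the log2FC was -0.22 (SE 0.0438, adjusted p = 0.000894, edgeR), a change of -14.2% with a 95% interval of -19.4% to -8.77%, too small for a DEG.

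Against Control, *Igfbp5* had a log2FC of -0.11 with BGP (adjusted p = 0.257) and 0.11 with NaHPO4 (adjusted p = 0.112, edgeR), neither of which passed. The NaHPO4 value ran from 0.08 to 0.17 over the fits that leave out a library, and passed at 0.17 without NaHPO4 replicate 2 (adjusted p = 0.0219, edgeR) and at 0.14 when libraries were scaled by total counts (adjusted p = 0.0422, edgeR).

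*Igfbp6*, which binds IGF2 more tightly than IGF1, had 6.73, 6.18 and 9.57 CPM in Control. It had 5.32, 5.93 and 7.22 CPM in BGP and 7.28, 9.20 and 10.7 CPM in NaHPO4. The highest BGP library lay just below the lowest NaHPO4 library, and the Control libraries overlapped both. In BGP versus NaHPO4 the log2FC was -0.55 (SE 0.147, 95% interval -0.85 to -0.25, adjusted p = 0.0177, edgeR), and *Igfbp6* was a DEG. Its call rested on several single libraries. It did not pass without BGP replicate 1 (log2FC -0.46, adjusted p = 0.136), BGP replicate 2 (-0.52, 0.0901), NaHPO4 replicate 2 (-0.54, 0.0600) or NaHPO4 replicate 3 (-0.42, 0.161).

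Against Control, the log2FC of *Igfbp6* was -0.29 with BGP (adjusted p = 0.421) and 0.26 with NaHPO4 (adjusted p = 0.314, edgeR). Without Control replicate 3 the NaHPO4 value was 0.49 and passed (adjusted p = 0.0434, edgeR), while the BGP value shrank to -0.06 (adjusted p = 0.920). Over the fits that leave out a library in turn, the BGP value lay between -0.42 and -0.06 and the NaHPO4 value between 0.13 and 0.49. These comparisons share the Control libraries.

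*Igfbp4* and *Igfbp2* did not pass in any comparison. *Igfbp4* had 496, 456 and 485 CPM in Control, 448, 473 and 454 in BGP, and 460, 482 and 510 in NaHPO4, with overlap between all conditions. Its difference from Control was between -9.12% and 0.798% for BGP and between -4.02% and 6.39% for NaHPO4 (95% intervals). *Igfbp2*, a binding protein that also attaches to integrins, had 12.6, 9.79 and 12.8 CPM in Control, 10.7, 10.8 and 12.4 in BGP, and 10.3, 10.6 and 10.3 in NaHPO4. Its BGP libraries all lay above its NaHPO4 libraries, yet the log2FC between them was 0.12 (adjusted p = 0.615, edgeR) with a 95% interval of -5.77% to 25.9%.

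**Figure D3:**
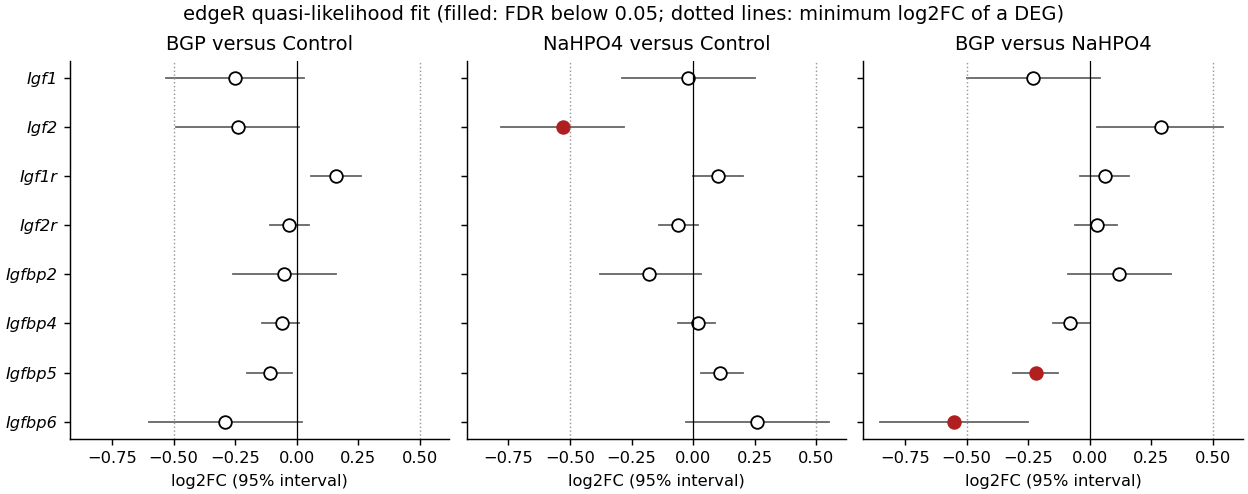
log2FC of the 8 tested members in each comparison (edgeR quasi-likelihood fit), with 95% intervals as horizontal lines. Filled points have an FDR below 0.05 and dotted lines mark a log2FC of -0.5 and 0.5. *Igf2* at -0.53 in NaHPO4 versus Control and *Igfbp5* at -0.22 and *Igfbp6* at -0.55 in BGP versus NaHPO4 are the filled points.

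In BGP versus Control, 0 of the 8 tested members passed, against 1.86% of all tested genes that were higher and 0.665% that were lower. By edgeR 2 members, *Igf1r* and *Igfbp5*, had an unadjusted p under 0.05, as did 1831 of the 13679 tested genes, and DESeq2 also gave 0 passing members. None was a DEG, against 0.482% of genes higher and 0.0731% lower. In NaHPO4 versus Control, 1 member (*Igf2*) passed and was lower, against 3.43% of genes higher and 3.95% lower. It was also the single DEG, against 0.446% higher and 0.270% lower. An unadjusted p under 0.05 was found for 3 of the 8 members in this comparison and for 2728 of the 13679 genes. In BGP versus NaHPO4, 2 members passed and both were lower in BGP, against 3.33% of genes higher and 2.05% lower, and 1 of them (*Igfbp6*) was a DEG, against 0.380% higher and 0.205% lower. An unadjusted p under 0.05 was found here for 4 of the 8 members and for 2316 of the 13679 genes. The median log2FC of the tested members was -0.085, -0.003 and -0.026 in the comparisons in this order, beside -0.004, 0.0 and -0.002 for all tested genes.

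Genes around the members were followed through lists of partners, receptor signalling and imprinted genes. The shares of all tested genes that passed in each comparison, given above for the members, apply to these lists too. The partners comprised 18 genes for other binding proteins, the proteases that cleave them, inhibitors of these, RNA-binding proteins of *Igf2* mRNA, and insulin with its receptors. Of these, 11 were tested. None passed in BGP versus Control or in BGP versus NaHPO4. By edgeR, 2, 3 and 1 of the 11 had an unadjusted p under 0.05 in BGP versus Control, NaHPO4 versus Control and BGP versus NaHPO4, beside 1831, 2728 and 2316 of the 13679 genes. In NaHPO4 versus Control, 1 passed and was lower, the secreted serine protease gene *Htra1* (log2FC -0.11, adjusted p = 0.0406, edgeR). In that comparison 3.95% of all tested genes passed and were lower.

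Genes for proteases of the binding proteins were expressed. *Pappa*, whose product cleaves IGFBP4, had 84.7 ± 0.360 CPM in Control, 83.9 ± 1.05 in BGP and 88.0 ± 6.34 in NaHPO4. Its log2FC in NaHPO4 versus Control was 0.05 (adjusted p = 0.548, edgeR) and did not pass. *Pappa2*, whose product cleaves IGFBP5, had 177 ± 37.9 CPM in Control. *Stc1*, the gene of a secreted inhibitor of both proteases, had 0 counts in every library, and *Stc2* had 0 to 2. *Igfbp1* and the insulin gene *Ins2* were also at 0. *Igfbp7*, a related protein that binds IGFs weakly, had 41.1 ± 3.04 CPM in Control, and *Igfals*, the acid-labile subunit of the serum complex, had 8.31 ± 0.950 CPM. The log2FC of *Igfals* in NaHPO4 versus Control was -0.35 (adjusted p = 0.0771, edgeR) and did not pass.

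Of 31 genes for signalling behind the receptor, from the adaptors through phosphoinositide 3-kinase and AKT to mTOR and FOXO, 30 were tested. None passed in BGP versus Control. By edgeR, 5, 5 and 4 of the 30 had an unadjusted p under 0.05 in the comparisons in the same order, beside 1831, 2728 and 2316 of the 13679 genes. In NaHPO4 versus Control, 1 passed and was higher, *Pik3ca* (log2FC 0.14, adjusted p = 0.0457, edgeR), a catalytic subunit of phosphoinositide 3-kinase. Of all tested genes, 3.43% passed and were higher there. In BGP versus NaHPO4, 1 passed and was lower in BGP, *Grb14* (log2FC -0.29, adjusted p = 0.0446, edgeR), an adaptor that restrains insulin receptor signalling. The share of all tested genes that were lower in BGP was 2.05%. The main receptor substrate *Irs1* had 400 ± 13.4 CPM in Control, and its log2FC was -0.03 with BGP and 0.02 with NaHPO4.

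The imprinted list held 20 genes, of which 6 were tested and none passed in any comparison. By edgeR, 0, 1 and 1 of the 6 had an unadjusted p under 0.05 in the same order, beside 1831, 2728 and 2316 of the 13679 genes. *Airn* had 251 to 365 counts per library. *H19* had 0 to 18 counts and was not tested, and *Dlk1*, *Meg3* and *Peg3* had 0 in every library.

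**Figure D4:**
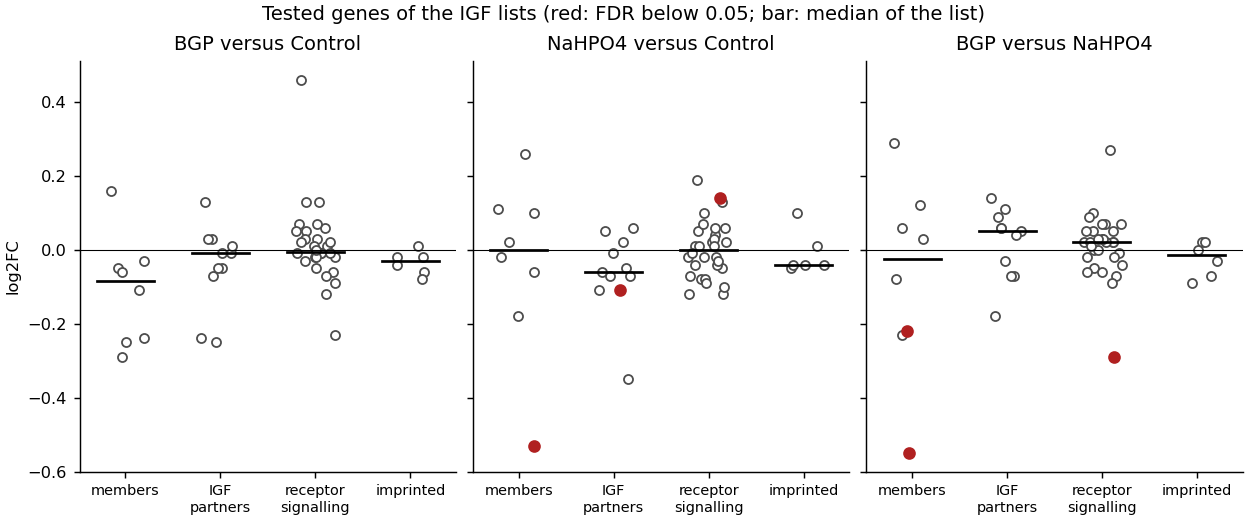
log2FC of the tested genes of the members and of the partner, signalling and imprinted lists, 1 point per gene, with a bar at the median of each list. Red points have an FDR below 0.05. Apart from the members, they are *Htra1* at -0.11 and *Pik3ca* at 0.14 in NaHPO4 versus Control and *Grb14* at -0.29 in BGP versus NaHPO4.

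Some markers on the lists of several cell types were lower in NaHPO4 than in Control, as *Igf2* was. Of the 14 osteoblast and osteocyte markers, 6 passed and were lower in NaHPO4 versus Control, and 1, *Dmp1* (log2FC 2.19), was higher. Of all tested genes, 3.95% passed and were lower and 3.43% were higher. The lower markers included *Sost*, a WNT inhibitor of osteocytes (log2FC -1.68), *Col1a1* (-0.22) and *Alpl* (-0.21). *Sost* had few reads, with 30 to 36 counts in Control, 12 to 35 in BGP and 9 to 14 in NaHPO4. The summed level of the list was 110212 to 117291 CPM in Control, 107672 to 113805 in BGP and 97512 to 104375 in NaHPO4. *Col1a1*, *Col1a2* and *Ibsp* made up most of it, with means of 43285, 56380 and 12429 CPM in Control. The smooth muscle actin gene *Acta2* had a log2FC of -0.42 and *Tagln* -0.24, the 2 tested genes of 7 muscle markers, whose summed level was 457 to 499 CPM in Control, 526 to 554 in BGP and 336 to 401 in NaHPO4. Of 6 chondrocyte markers 1 passed and was lower, *Col2a1* (-0.45), and of 6 macrophage and osteoclast markers 1, *Ctsk* (-0.20). The summed levels were 250 to 308, 341 to 447 and 187 to 267 CPM for the former and 290 to 297, 276 to 287 and 250 to 263 CPM for the latter in Control, BGP and NaHPO4. The muscle, chondrocyte and macrophage sums follow mainly 1 gene each. In Control the means were 440 CPM for *Acta2*, 242 for *Col2a1* and 292 for *Ctsk*. In BGP versus NaHPO4, where *Igfbp5* and *Igfbp6* passed, 8 of the 14 osteoblast and osteocyte markers, 2 of the 7 muscle markers, 1 chondrocyte marker and 1 macrophage and osteoclast marker passed and were higher in BGP, and none was lower. The shares of all tested genes were 3.33% higher and 2.05% lower. *Acan*, *Adgre1* and *Acp5* stayed under 10 counts. The adipocyte list summed to 9.90 to 15.7 CPM and the endothelial list to 0 to 0.187 CPM over all libraries. The part of these changes in the *Igf2*, *Igfbp5* and *Igfbp6* values was not tested, and in these bulk samples fewer cells of a type and less RNA per cell cannot be told apart.

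The genes whose pattern was most like that of the DEG members were ranked by the root mean square difference of mean-centred log2 CPM over the 9 libraries, among 13678 genes. For *Igf2* they were *9630013D21Rik* (0.111), *1110025M09Rik* (0.113) and *Sdk2* (0.132), where *Igf2* itself deviates from its mean by 0.274. For *Igfbp6* they were *Amhr2* (0.128), *Ticrr* (0.154) and *Lrrc8d* (0.161), where *Igfbp6* deviates by 0.318. All 6 had a low mean level of 0.883 to 6.61 CPM. Of these genes only *Ticrr* passed in a comparison, with a log2FC of -0.50 in BGP versus NaHPO4 (adjusted p = 0.0148, edgeR).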

How the data were processed

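RNA sequencing data of 9 MC3T3-E1 libraries were re-analysed, 3 per condition, with conditions taken from the sample labels. The main file deposited by the authors gives unnormalized read counts for each Ensembl gene. Before counting, the authors ran quality control with FastQC and mapped read pairs to GRCm39 in the AIR software. The aligner, the counting program and the use of strand were not given in the sources used here. A further table deposited by the authors holds TMM-scaled values, a signal equal to the counts times 1 factor per library, and served only for an alternative.

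The filter was filterByExpr (edgeR 4.0.16, count minimum 10), scaling was by TMM, and glmQLFit fitted all 9 libraries together with condition as the sole term. P-values of glmQLFTest were adjusted after Benjamini and Hochberg over 13679 genes. Levels per kb divide CPM by the union of exons in the GENCODE annotation of GRCm39. The release used for lengths and positions is not the one the study names for mapping. Of the 55416 gene IDs in the counts, 54749 were found in it. The fit was tested on simulated data. Members and lists were chosen with earlier results of these data known. Named genes are the 9 members, list genes past the FDR threshold, the 3 genes most like each DEG, *Dmp1*, *Spp1*, *Fgf23* and markers. Genes named at 0 or near it, those sharing sequence or position with a member, and *Pappa*, *Pappa2*, *Igfbp7*, *Irs1* and *Igfals* were chosen after their values were seen. Alternatives were DESeq2 1.42.0, limma 3.58.1, a fit of only the groups compared, a likelihood ratio test, other scalings, filters and thresholds, a replicate block, and fits without each library. R 4.3.3, Python 3.11.15, pandas 2.3.3 and matplotlib 3.10.9 were used.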

Additional observations from a re-analysis of the deposited data

Results flagged for a closer look

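The responses of 2 binding protein genes to the 2 phosphate sources differed in the direct comparison. *Igfbp6* had a log2FC of -0.55 in BGP versus NaHPO4 (adjusted p = 0.0177, edgeR quasi-likelihood test), with a log2FC of -0.29 for BGP and 0.26 for NaHPO4 against the shared Control libraries, neither of which passed. Without Control replicate 3 these were -0.06 and 0.49. The 3 BGP libraries lay below the 3 NaHPO4 libraries by a narrow gap, 7.22 against 7.28 CPM at the nearest. *Igfbp5* had a log2FC of -0.22 in the same comparison (adjusted p = 0.000894), with -0.11 for BGP and 0.11 for NaHPO4 against Control, and its nearest libraries lay at 90.6 and 93.4 CPM.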

How the results depend on the processing

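Over the 8 tested members and 3 comparisons, 431 of 456 recomputed log2FC kept their direction and their side of the FDR threshold. Some alternatives could hardly change the direction. The stricter threshold reuses the same log2FC, and leaving out a library of the condition not compared barely moves it. *Igf2* in NaHPO4 versus Control and *Igfbp5* in BGP versus NaHPO4 passed in 19 of 19 alternatives each, and *Igfbp6* in BGP versus NaHPO4 in 14 of 19. The cause was not tested for any change below, except where fewer libraries or a stricter threshold define the alternative. In BGP versus Control, 1 member (*Igf1r*) passed with no filter on low counts (adjusted p = 0.0102, edgeR), and leaving out a library gave 0 to 1 members. In NaHPO4 versus Control, 2 members passed with total counts in place of TMM, the second being *Igfbp5* (adjusted p = 0.0422, edgeR), and leaving out a library gave 1 to 3 members and 0 to 1 DEGs. In BGP versus NaHPO4, an FDR of 0.01 left 1 member and 0 DEGs, since *Igfbp6* has an adjusted p of 0.0177, and leaving out a library gave 1 to 2 members and 0 to 1 DEGs. Some log2FC that did not pass changed sign. *Igf1* in NaHPO4 versus Control was 0.004 with total counts, 0.02 with limma on the deposited TMM table and -0.17 to 0.25 over the fits that leave out a library. *Igf2r* in BGP versus NaHPO4 was -0.0012 with total counts and -0.03 to 0.09 without a library. The range without a library was -0.40 to 0.02 for *Igf1* and -0.17 to 0.02 for *Igfbp2* in BGP versus Control, and -0.02 to 0.05 for *Igfbp4* in NaHPO4 versus Control. No scaling moved the median log2FC of all tested genes past -0.029 or 0.025.

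The labels share replicate numbers between conditions. Over all tested genes, deviations of same-numbered libraries from their condition mean had correlations of -0.0092 to 0.0426. With counting error in each gene, such values cannot show whether same-numbered libraries belong together. Among the members, *Igf2* was highest in replicate 1, *Igf1* in replicate 2 and *Igfbp6* in replicate 3 of every condition. The other tested members were not highest in the same replicate throughout. How often this occurs over all tested genes was not counted, so no pairing is read from it. With the replicate block, 1 member passed in BGP versus Control, *Igf1r* (log2FC 0.16, adjusted p = 0.0388, edgeR), and no other call among the members changed.

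With the longest transcript in place of the union of exons, *Igf2r* over *Igf1r* per kb was 3.82 in Control, 3.34 in BGP and 3.41 in NaHPO4, binding protein over ligand level was 36.2 in Control, 40.3 in BGP and 43.8 in NaHPO4, and the *Igfbp4* share was 80.9%, 81.6% and 80.2%, so that the order of the conditions was kept in each. *Igf1*, *Igf2*, *Igfbp2* and *Igfbp6* had 118 to 516 counts per library, and the part of counting error in their spread was not tested.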
